A study of Mus musculus with 12 samples.

Results

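The genes described here are the subunits of the transcription factor NF-κB and the inhibitors that restrain it, in mouse macrophages stimulated with IFNγ + LPS, with and without a block of triacylglycerol synthesis. The set was defined by gene name, with earlier results of these data known. It holds 10 of the 47937 genes in the count table, found by matching each Ensembl identifier, with its version dropped, to a mouse gene symbol. All 10 had enough reads to pass the filter on low counts, which 11760 genes passed.

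Bone marrow cells of C57BL/6 mice were grown into macrophages in CSF-1 for 7 days, and RNA was sequenced in 4 groups of 3 libraries each. Resting macrophages (M0) received no stimulus, and their labels give no time. The IFNγ + LPS group was stimulated with 50 ng/ml IFNγ and 20 ng/ml LPS for 18 h, the M0 + DGAT1i group received 50 μM T863, an inhibitor of the triacylglycerol-synthesizing enzyme DGAT1, for 18 h, and the IFNγ + LPS + DGAT1i group received all 3 agents for 18 h. In all groups the cells had been cultured with CSF-1. The descriptions of some M0 + DGAT1i libraries number the compound differently, while their source label gives T863, and they were read as T863. The labels do not say whether the 3 libraries of a group came from separate mice or cultures, so that p-values cover only the spread between these libraries.

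NF-κB is a dimer of Rel-family proteins. RelA (Rela), c-Rel (Rel) and RelB (Relb) carry a transactivation domain, while p50 and p52 are made by processing of the p105 and p100 precursors that Nfkb1 and Nfkb2 encode. In resting cells, IκBα (Nfkbia), IκBβ (Nfkbib) and IκBε (Nfkbie) hold dimers in the cytoplasm until the IκB kinase (IKK) complex marks them for degradation. IκBζ (Nfkbiz) is a nuclear IκB protein that joins p50 on a subset of inflammatory promoters, and A20 (Tnfaip3) is a ubiquitin-editing enzyme that dampens the signal upstream of IKK. Several of these genes are themselves NF-κB targets in macrophages, so that the pathway rebuilds its own inhibitors after LPS.

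Libraries held between 4996014 and 6621671 reads in genes. Levels are given as read counts scaled to a common library size by TMM (CPM), and 1 CPM stood for 4.28 to 7.58 reads. The 10 genes had between 69 and 1932 reads per library, with a median of 316.5. The 8 macrophage markers summed to 13131 to 14358 CPM in M0, 8323 to 8980 in IFNγ + LPS, 16054 to 18075 in M0 + DGAT1i and 7923 to 8891 in IFNγ + LPS + DGAT1i, and erythroid markers had 0 reads. After IFNγ + LPS, 5 of the 8 fell and 3 rose. Of 8 neutrophil markers Ly6g had 0 reads in all libraries, and their sum was 31.6 to 38.7 CPM in M0, 15.2 to 25.5 CPM in IFNγ + LPS, 22.9 to 29.0 CPM in M0 + DGAT1i and 63.0 to 81.0 CPM in IFNγ + LPS + DGAT1i. The 5 dendritic cell markers summed to 0.133 to 0.835 CPM in M0, 8.05 to 11.2 in IFNγ + LPS, 0.264 to 0.710 in M0 + DGAT1i and 3.50 to 6.77 in IFNγ + LPS + DGAT1i, and the 2 of them that were tested rose with IFNγ + LPS. The activation genes Nos2, Il12b, Acod1, Cxcl9 and Cd40 summed to at most 11.6 CPM in every unstimulated library and to at least 12856 CPM in every stimulated library.

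Since stimulation raised all 10 genes, their promoters are shown with the κB consensus, the 10-base motif that NF-κB binds. RefSeq windows of 250 bases upstream of a gene start (GRCm38.p6) were at hand for 7 of the 10 genes, in 10 windows, and were searched on both strands. Nfkb1, Relb and Nfkbiz had no window. The consensus matched in 7 of the 10 windows, 3 of them of Nfkb2, against 7.25% of all 32817 windows. By gene it matched in 5 of the 7, for which no share over all genes was counted. It matched Nfkb2, Rel, Nfkbia, Nfkbie and Tnfaip3, and did not match in the windows of Rela and Nfkbib. A match of letters is not a measured binding site. The promoters of the inhibitor genes with the highest folds after IFNγ + LPS, Nfkbia at chr12:55492648-55492897 on the minus strand and Nfkbie at chr17:45555450-45555699 on the plus strand, are written with the κB match in capitals, which began 29 bases upstream of the start in Nfkbia and 106 in Nfkbie.
Nfkbia: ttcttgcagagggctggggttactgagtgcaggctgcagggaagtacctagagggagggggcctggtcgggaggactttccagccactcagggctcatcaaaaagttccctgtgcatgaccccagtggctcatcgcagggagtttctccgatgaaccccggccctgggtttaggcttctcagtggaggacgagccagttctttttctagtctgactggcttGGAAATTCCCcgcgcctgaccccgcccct
Nfkbie: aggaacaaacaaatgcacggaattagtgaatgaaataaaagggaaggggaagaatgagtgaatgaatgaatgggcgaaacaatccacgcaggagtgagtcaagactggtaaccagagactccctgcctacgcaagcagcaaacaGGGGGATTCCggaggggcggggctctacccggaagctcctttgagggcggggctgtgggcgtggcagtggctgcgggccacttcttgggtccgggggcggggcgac

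For the other genes 1 match each is shown, with up to 10 bases on each side. Further matches, some overlapping those shown, lay in each of the 3 windows of Nfkb2 and in the same window in Rel and Tnfaip3. The match shown lay 39 bases upstream of the RefSeq start in Nfkb2 (chr19:46304698-46304707, plus strand), 92 in Rel (chr11:23771052-23771061, minus strand) and 12 in Tnfaip3 (chr10:19015413-19015422, minus strand). By the GENCODE positions given under processing, the matches shown for Nfkb2 and Tnfaip3 lie within the annotated gene.
Nfkb2: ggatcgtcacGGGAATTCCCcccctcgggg
Rel: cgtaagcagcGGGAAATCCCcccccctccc
Tnfaip3: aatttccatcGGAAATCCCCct
A loose form of the AP-1 motif (TGANTCA, where N is any base) matched in 3 of the 10 windows, against 6.75% of all windows. The matches were 1 each of Nfkb2 (TGAATCA), Nfkbie (TGAGTCA) and Tnfaip3 (TGACTCA). The stricter site, with C or G in the middle, was met in Nfkbie and Tnfaip3 and not in Nfkb2. Its share over all windows was not counted.

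At rest the genes were expressed at unequal levels. Levels of different genes are set side by side only per kb of exon, with all annotated exons of a gene merged. This length was 12061 bases for Nfkb1 and 4584 for Nfkb2, and it can exceed that of a single transcript. The orders, shares and ratios of levels per kb rest on it, and no other length was tried. On this scale Rela and Nfkbia led in M0 with 20.6 and 20.0 CPM per kb, and their libraries overlapped. Nfkb2 and Nfkb1 followed at 9.98 and 9.82 CPM per kb, and their libraries overlapped as well. Nfkbib, at 6.33 CPM per kb, overlapped with neither neighbour. Relb (4.04), Tnfaip3 (3.97), Nfkbie (3.75), Nfkbiz (3.34) and Rel (2.99) came last, where only the step from Nfkbie to Nfkbiz was free of overlap. In M0 macrophages the mRNAs of RelA and of its main inhibitor IκBα thus stood at overlapping levels per kb. The means of c-Rel and IκBζ were the lowest, but IκBζ (3.00 to 3.59 CPM per kb) overlapped with RelB (3.44 to 4.83).

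IFNγ + LPS raised all 10 genes, from 1.71-fold for Rel to 14.8-fold for Nfkbie. This is read against a wide response: 73.3% of the genes tested changed, 37.1% upwards and 36.2% downwards, and 75.4% had no overlap between the groups. The median log2 fold change was 2.45 over the 10 genes and 0.01 over all genes tested. It was 1.26 over the 5 subunits and 3.23 over the 5 inhibitors. Of the genes called, 4361 were higher and 4254 lower. With library size only in place of TMM, which moved the median of all genes to -0.46, these were 2340 and 7002, and all 10 members were still called higher. All p-values here and below are from edgeR's quasi-likelihood test, adjusted over all genes by the Benjamini-Hochberg method.

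**Figure D1:**
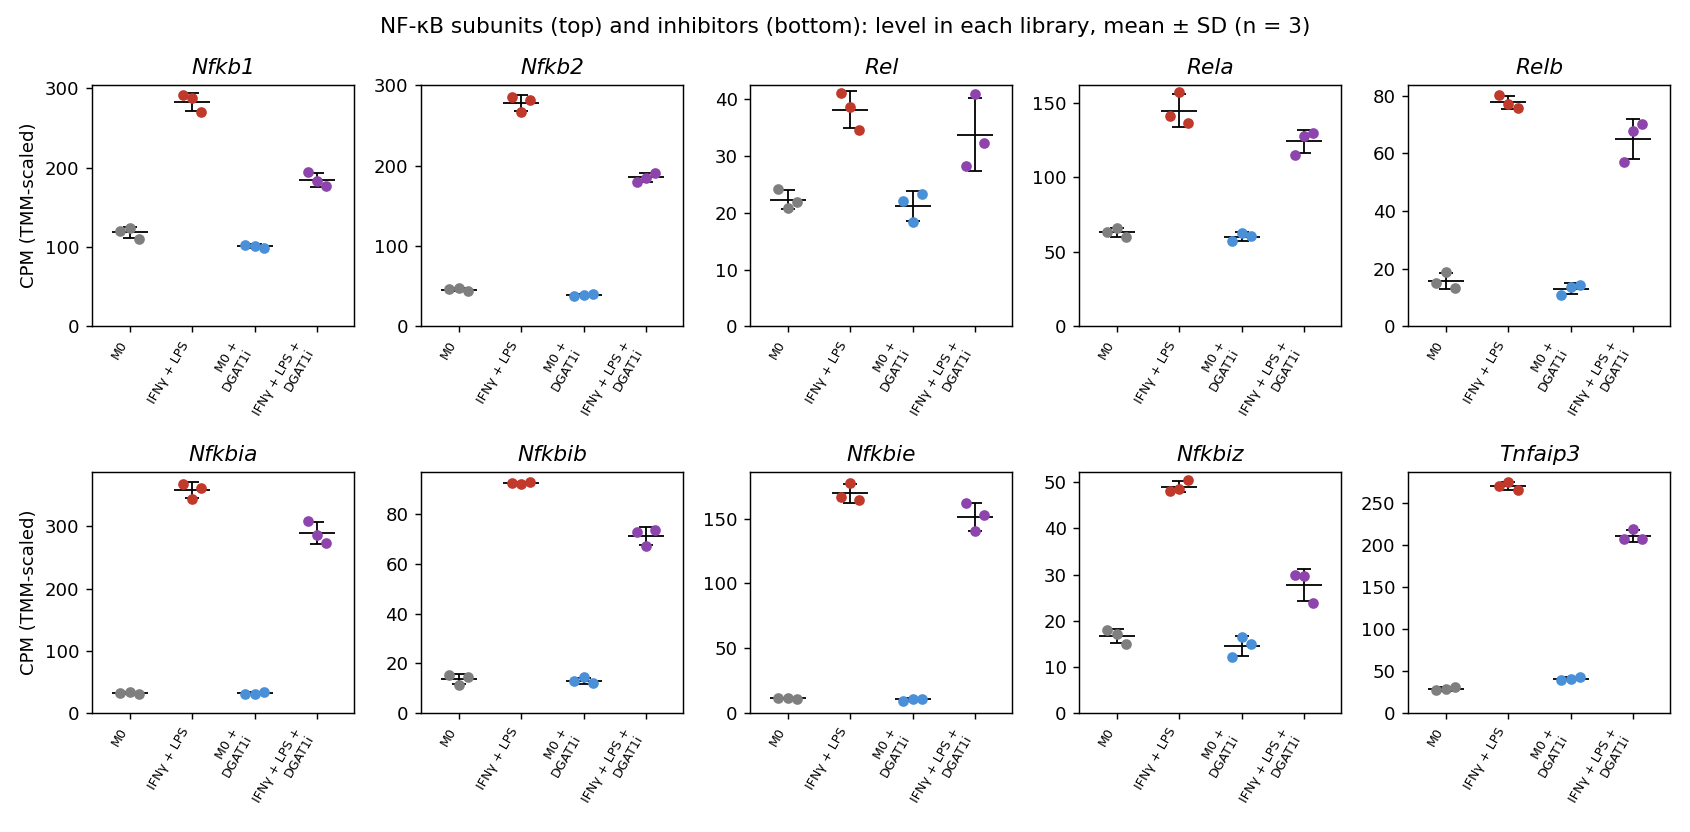
Level of each NF-κB subunit (top) and inhibitor (bottom) in CPM on a linear axis from 0, in M0, IFNγ + LPS, M0 + DGAT1i and IFNγ + LPS + DGAT1i. Points are libraries, and bars are the mean ± SD (n = 3). Every stimulated library lies above every library of the same gene without stimulus, and Tnfaip3 is the gene whose M0 + DGAT1i libraries lie above M0.

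Of the 5 inhibitors, 4 gained more than any subunit, and Nfkbiz gained less than Nfkb2 and Relb, an order that was not tested. Nfkbie, which encodes IκBε, had 11.8, 11.5 and 11 CPM in M0 and 167, 178 and 164 CPM in IFNγ + LPS (log2 fold change 3.89, SE 0.09, adjusted p = 1.54e-42 by edgeR). Nfkbia, the rapidly resynthesized IκBα, rose from 33.0, 33.6 and 29.9 CPM to 368, 344 and 362 CPM, or 11.1-fold (log2 fold change 3.48, SE 0.07, adjusted p = 8.29e-46 by edgeR). In each gene the lowest stimulated library stood far above the highest resting library. Tnfaip3 (A20) rose 9.38-fold, from 26.9, 28.4 and 30.9 CPM to 269.9, 275 and 265 CPM (SE 0.07 on the log2 scale, adjusted p = 4.98e-44 by edgeR). Nfkbib (IκBβ) rose 6.77-fold, from 15.4, 11.5 and 14.3 CPM to 92.9, 92.3 and 93.1 CPM (SE 0.09, adjusted p = 2.17e-33 by edgeR). Its 3 stimulated libraries differed by less than 1 CPM. Nfkbiz (IκBζ) gained least among the inhibitors, 2.93-fold, from 18.02, 17.2 and 15.04 CPM to 48.2, 48.6 and 50.4 CPM (SE 0.11, adjusted p = 1.97e-19 by edgeR). Nfkbib lies opposite to Sirt2, with 42 shared exon bases. The sources used here do not give the strand used in counting, so that reads in those bases cannot be assigned.

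Among the subunits, the genes of the non-canonical branch rose most. Nfkb2, the p100/p52 precursor, went from 46.2, 47.1 and 43.9 CPM to 286, 267 and 282 CPM, or 6.07-fold (SE 0.06, adjusted p = 4.37e-41 by edgeR). Relb, the usual partner of p52, went from 14.96, 18.8 and 13.4 CPM to 80.2, 77.2 and 75.7 CPM, or 4.93-fold (SE 0.10, adjusted p = 1.95e-27 by edgeR). The canonical subunits moved less. Nfkb1 had 121, 124 and 111 CPM in M0 and 291, 288 and 269.7 CPM after stimulation, a 2.39-fold rise (SE 0.06, adjusted p = 1.28e-27 by edgeR). Rela had 63.5, 66.1 and 60.01 CPM in M0 and 141, 157 and 137 CPM after stimulation, a 2.29-fold rise (SE 0.07, adjusted p = 3.36e-23 by edgeR). Rel had 24.1, 20.9 and 21.9 CPM in M0 and 41.1, 38.7 and 34.7 CPM after stimulation, the smallest rise of the 10 (SE 0.11, adjusted p = 2.20e-08 by edgeR). In none of these genes did a resting library reach a stimulated one. Nfkb2 shares 299 exon bases with Psd on the opposite strand, which had at most 2 reads in any library. It also shares 531 exon bases with AC114539.1 on the opposite strand, which was not analysed here, and reads in those bases cannot be assigned.

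After stimulation the order of levels changed. Nfkbia stood first at 222 CPM per kb, followed by Nfkb2 (60.6), Nfkbie (55.7), Rela (47.1), Nfkbib (42.8), Tnfaip3 (37.3), Nfkb1 (23.5), Relb (20.0), Nfkbiz (9.78) and Rel (5.11). Only Nfkb2 and Nfkbie overlapped between libraries. Nfkbie moved from the eighth place at rest to the third.

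The make-up of the mRNA pool is given as a description, without a test. The 5 subunits summed to 47.4 ± 2.57 CPM per kb in M0 and 156 ± 3.43 in IFNγ + LPS (SD, n = 3). The 3 classical IκB genes, Nfkbia, Nfkbib and Nfkbie, summed to 30.1 ± 1.32 CPM per kb in M0 and 321 ± 5.89 in IFNγ + LPS (SD, n = 3). Their ratio to the subunits was thus 0.601 to 0.658 in the M0 libraries and 1.99 to 2.11 in the stimulated libraries. With the exon lengths used, resting cells held less IκB than subunit mRNA per kb, and stimulated cells held more. Within the subunits, the share of Rela was 43.4% in M0 and 30.1% in IFNγ + LPS, and that of Nfkb2 was 21.1% and 38.8%. Per kb of merged exon, the Nfkb2 level was 1.02 times that of Nfkb1 in M0 and 2.59 times after stimulation. These ratios depend on the lengths used. Within the IκB genes, Nfkbia kept a share of 66.5% and 69.3%, while Nfkbib went from 21.1% to 13.3% and Nfkbie from 12.5% to 17.4%.

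**Figure D2:**
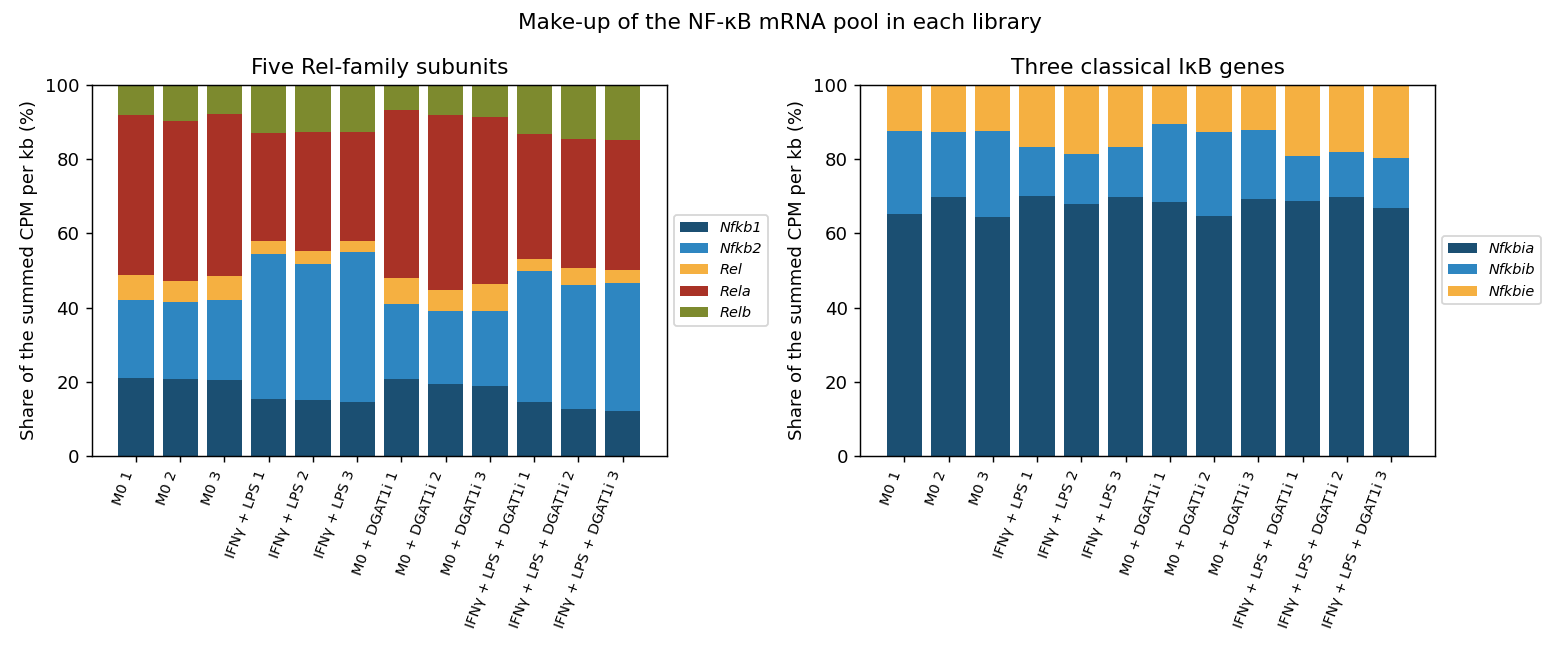
Share of each gene in the summed CPM per kb of the 5 Rel-family subunits (left) and of the 3 classical IκB genes (right), in percent, for each of the 12 libraries. Stimulated libraries hold a larger share of Nfkb2 and Relb and a smaller share of Rela, with 30.1% Rela in IFNγ + LPS against 43.4% in M0, and the share of Nfkbia stays near that in M0.

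DGAT1i lowered 9 of the 10 genes in IFNγ + LPS macrophages, with no gene raised. Of all genes tested, 29.8% changed under this treatment, 16.3% downwards, and 39.7% had no overlap between the groups. The median log2 fold change was -0.33 over the 10 genes and -0.01 over all genes tested. Folds were small, from a level that fell by 10.7% for Nfkbie to 1 that fell by 43.2% for Nfkbiz, and all stimulated libraries with DGAT1i still stood above those of M0. In RNA from a whole culture, fewer expressing cells and less RNA per cell cannot be told apart. The neutrophil markers, whose sum is given above, moved with this comparison: all 4 that were tested were higher with DGAT1i. The summed dendritic cell markers were lower with it, with 1 of 2 tested called lower. Their part in the results was not tested. This comparison shares its IFNγ + LPS libraries with the stimulation comparison.

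Nfkbiz fell most. It had 48.2, 48.6 and 50.4 CPM without DGAT1i and 29.8, 29.6 and 23.8 CPM with it (log2 fold change -0.82, SE 0.11, 95% interval -1.03 to -0.60, adjusted p = 9.88e-09 by edgeR). Every treated library lay below every untreated one. Tnfaip3 fell from 269.9, 275 and 265 CPM to 206, 219 and 207 CPM (log2 fold change -0.35, SE 0.05, adjusted p = 6.68e-07 by edgeR). Nfkbia fell from 368, 344 and 362 CPM to 309, 287 and 272 CPM (log2 fold change -0.31, SE 0.05, adjusted p = 8.45e-06 by edgeR). Nfkbib fell from 92.9, 92.3 and 93.1 CPM to 73.1, 67.4 and 73.5 CPM (log2 fold change -0.38, SE 0.08, adjusted p = 9.67e-05 by edgeR). In all 4 genes the groups did not overlap. Nfkbie, with 162, 140.2 and 152 CPM under DGAT1i, was the weakest of the inhibitors (log2 fold change -0.16, SE 0.06, adjusted p = 0.0413 by edgeR). Its call was lost with DESeq2 (adjusted p = 0.127), with only the 6 libraries compared (0.0754), without IFNγ + LPS replicate 1 (0.0533) or 2 (0.174) and without IFNγ + LPS + DGAT1i replicate 2 (0.240) or 3 (0.0675).

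Of the subunits, the precursors of p50 and p52 fell most and by like amounts. Nfkb1 fell to 194, 183 and 177 CPM (log2 fold change -0.61, SE 0.06, 95% interval -0.73 to -0.50, adjusted p = 2.96e-13 by edgeR). Nfkb2 fell to 180.1, 184 and 191 CPM (log2 fold change -0.59, SE 0.05, 95% interval -0.70 to -0.48, adjusted p = 6.22e-13 by edgeR). Against IFNγ + LPS alone their levels dropped by 34.7% and dropped by 33.4%. The estimates for the subunits with a transactivation domain were smaller, a difference that was not tested. Rela had 115, 128 and 129.6 CPM with DGAT1i (log2 fold change -0.22, SE 0.07, adjusted p = 0.00661 by edgeR), and its call was lost without IFNγ + LPS replicate 2 (adjusted p = 0.0918) or without IFNγ + LPS + DGAT1i replicate 1 (0.0604). Relb had 57.0, 67.6 and 70.3 CPM (log2 fold change -0.26, SE 0.09, adjusted p = 0.0189 by edgeR), and lost its call with DESeq2 (adjusted p = 0.0953), without IFNγ + LPS replicate 1 (0.0637) and without IFNγ + LPS + DGAT1i replicate 1 (0.164). Rel had 28.2, 40.9 and 32.2 CPM, which overlapped with the untreated libraries (log2 fold change -0.17, 95% interval -0.40 to 0.05, adjusted p = 0.265 by edgeR). Without IFNγ + LPS + DGAT1i replicate 2, the highest of its group, Rel passed the threshold (log2 fold change -0.34, adjusted p = 0.0316 by edgeR). Without replicate 1 of that group, the lowest, the log2 fold change was -0.053 (adjusted p = 0.795). The interval does not show that Rel was left at its level.

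Under DGAT1i the stimulated cells held 117 ± 5.27 CPM per kb of subunit mRNA and 262 ± 14.1 CPM per kb of classical IκB mRNA (SD, n = 3). The ratio of IκB to subunits was 2.09 to 2.50 in these libraries, against 1.99 to 2.11 in IFNγ + LPS, ranges that overlap. The share of Rela was 34.4% with DGAT1i and 30.1% without it, and that of Nfkb2 was 34.4% and 38.8%. In the order of levels per kb, Nfkbie (49.7) stood above Nfkb2 (40.4) with DGAT1i, and the libraries of Nfkb2 overlapped with those of Rela (40.4). Nfkbiz (5.53) and Rel (4.52) stayed last and overlapped.

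In M0 macrophages DGAT1i changed 3 of the 10 genes, and in opposite directions. Tnfaip3 rose, and Nfkb1 and Nfkb2 fell. Of all genes tested, 24.4% changed, 11% upwards and 13.4% downwards, and 37.8% had no overlap between the groups. The median log2 fold change was -0.10 over the 10 genes and 0.00 over all genes tested. The share of members called, 3 of 10, is close to that over all genes. By library size only, 885 genes were called higher and 2092 lower, against 1298 and 1571 with TMM, and the same count of members was called in each direction. The M0 libraries are those of the stimulation comparison.

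Tnfaip3 had 26.9, 28.4 and 30.9 CPM in M0 and 38.8, 41.03 and 42.6 CPM in M0 + DGAT1i, from 185 to 222 reads per library in M0. It rose 1.42-fold (log2 fold change 0.51, SE 0.08, 95% interval 0.35 to 0.67, adjusted p = 9.26e-07 by edgeR), and the groups did not overlap. Nfkb1 went from 121, 124 and 111 CPM to 103, 101 and 98.3 CPM (log2 fold change -0.23, SE 0.06, adjusted p = 0.00196 by edgeR). Nfkb2 went from 46.2, 47.1 and 43.9 CPM to 37.99, 39.2 and 40.4 CPM (log2 fold change -0.22, SE 0.07, adjusted p = 0.0190 by edgeR). Neither gene overlapped between the groups. The call for Nfkb2 was lost with no filter on low counts (adjusted p = 0.0519), without M0 replicate 1 (0.0551) or 2 (0.0818) and without M0 + DGAT1i replicate 1 (0.0824) or 2 (0.0507).

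The other 7 genes overlapped between M0 and M0 + DGAT1i. Nfkbia had 31.3, 30.5 and 33.7 CPM with DGAT1i (log2 fold change -0.01, 95% interval -0.18 to 0.15, adjusted p = 0.935 by edgeR). Rela had 57.0, 62.9 and 60.3 CPM (95% interval of the log2 fold change -0.22 to 0.07). Larger changes were not bounded as closely in the low genes: the interval was -0.30 to 0.17 for Rel, -0.32 to 0.18 for Nfkbib, -0.38 to 0.15 for Nfkbie and -0.46 to 0.04 for Nfkbiz. Relb, with 10.9, 13.8 and 14.4 CPM, had a log2 fold change of -0.28 and an adjusted p of 0.126 by edgeR, which became 0.0429 without M0 replicate 3 (log2 fold change -0.38). Without M0 replicate 2 the log2 fold change was -0.12 (adjusted p = 0.635). The ratio of classical IκB to subunit mRNA was 0.674 to 0.694 in M0 + DGAT1i and 0.601 to 0.658 in M0.

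**Figure D3:**
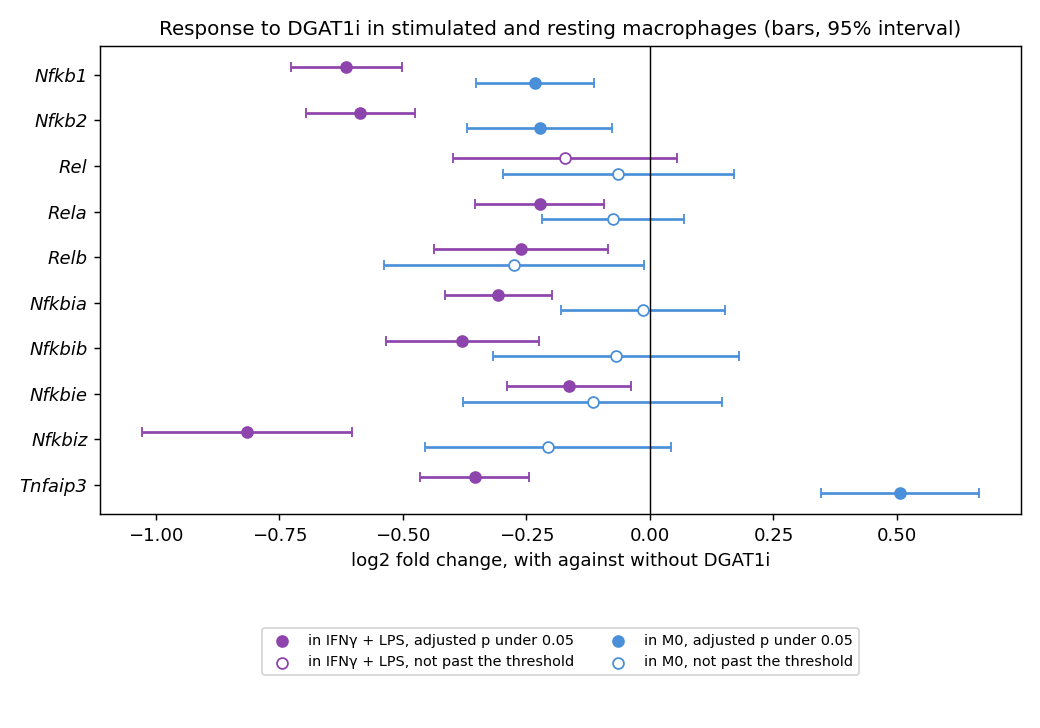
Log2 fold change by DGAT1i of each gene in IFNγ + LPS (purple) and in M0 (blue), with bars for the 95% interval and filled points for an adjusted p under 0.05. Of the 10 genes, 9 lie below 0 with filled points in IFNγ + LPS, and Tnfaip3 lies at 0.51 in M0 and at -0.35 in IFNγ + LPS.

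Whether DGAT1i acted differently in stimulated and resting cells was tested as the difference between the responses. It passed the threshold for 5 of the 10 genes, all with a lower response in IFNγ + LPS, where 18.5% of all genes tested passed, 9.8% in this direction and 8.66% in the other. By library size only, 1229 genes had a higher response and 882 a lower one, against 1019 and 1152 with TMM. The neutrophil markers moved in this contrast too, with all 4 that were tested higher (median 2.44), and their part in the result was not tested. Tnfaip3 differed most: it rose in M0 and fell in IFNγ + LPS, a difference of -0.86 on the log2 scale (SE 0.10, 95% interval -1.05 to -0.67, adjusted p = 6.99e-10 by edgeR). Nfkbiz differed by -0.61 (SE 0.16, adjusted p = 0.00491 by edgeR), Nfkb1 by -0.38 (SE 0.08, adjusted p = 0.000394) and Nfkb2 by -0.36 (SE 0.09, adjusted p = 0.00266). These 4 kept their call without any 1 of the 12 libraries. Nfkbia differed by -0.29 (SE 0.10, adjusted p = 0.0284 by edgeR), a call lost by library size only in place of TMM (0.0819), by DESeq2 (0.0927), and without M0 replicate 3 (0.100), IFNγ + LPS replicate 1 (0.0541), M0 + DGAT1i replicate 3 (0.0989) or IFNγ + LPS + DGAT1i replicate 3 (0.0725). Nfkbib gave -0.31 with an interval of -0.61 to -0.02 and did not pass (adjusted p = 0.136 by edgeR), and ranged from -0.40 to -0.19 with 1 library left out. For Rel, Rela, Relb and Nfkbie the interval covered 0, running from -0.43 to 0.22 for Rel and from -0.30 to 0.33 for Relb.

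The same difference can be read as the response to stimulation with and without the inhibitor, given side by side. In the presence of DGAT1i, IFNγ + LPS raised all 10 genes, where 70.6% of all genes tested changed, 35.3% upwards, and 72.5% had no overlap. In this contrast 3 of 4 tested neutrophil markers and 2 of 2 tested dendritic cell markers were higher, and their part in the result was not tested. The calls, 4152 higher and 4151 lower with TMM, became 2333 and 6799 with library size only. Tnfaip3 was raised 9.38-fold without DGAT1i and 5.17-fold with it, from a higher resting level to a lower stimulated one. Nfkbiz was raised 2.93-fold and 1.92-fold, Nfkb1 2.39-fold and 1.83-fold, Nfkb2 6.07-fold and 4.72-fold, and Nfkbia 11.1-fold and 9.08-fold. Nfkbie (14.8-fold and 14.4-fold) and Relb (4.93-fold and 4.98-fold) had nearly the same fold in each setting. Nfkbib had 6.77-fold and 5.45-fold, Rela 2.29-fold and 2.07-fold, and Rel 1.71-fold and 1.59-fold. With library size only in place of TMM, where the median of all genes was -0.43 on the log2 scale, the rise of Rel under DGAT1i was 0.25 and lost its call (adjusted p = 0.0546). The direction held for all 10 genes under each scaling.

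**Figure D4:**
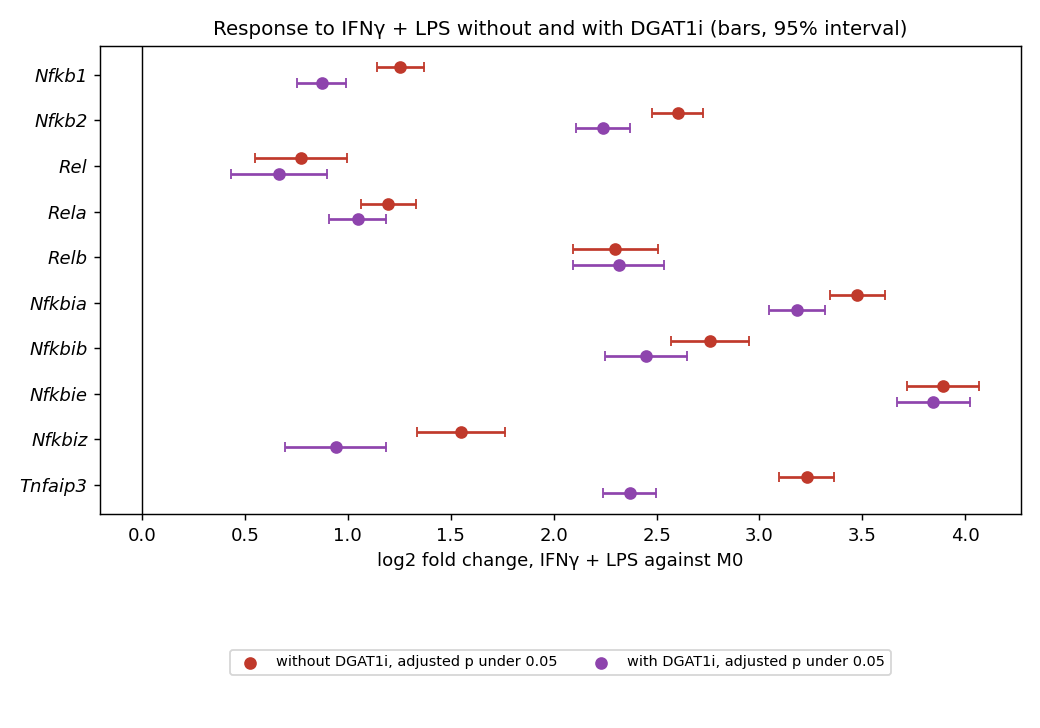
Log2 fold change of each gene by IFNγ + LPS, without DGAT1i (red) and with DGAT1i (purple), with bars for the 95% interval. All points lie above 0 with an adjusted p under 0.05, and Tnfaip3 has the widest gap, 3.23 without and 2.37 with DGAT1i.

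The other genes of the pathway were read from lists of 14 further IκB proteins and brakes, 25 components of IKK and its upstream adaptors, and 22 textbook targets, of which 20 passed the filter. Cxcl1 had at most 4 reads in a group and Csf2 had 0 reads. After IFNγ + LPS, 11 of 14 brakes rose and 2 fell, 21 of 25 components rose and 2 fell, and 19 of 20 targets rose and 1 fell, where 37.1% of all genes rose and 36.2% fell. With library size only in place of TMM the brakes gave 7 higher and 4 lower and the components gave 5 lower. Over all settings, 15 to 21 components were called higher. With DGAT1i in IFNγ + LPS, 7 of 14 brakes fell and 1 rose, 9 of 25 components fell and 3 rose, and 13 of 20 targets fell and 2 rose, where 16.3% of all genes fell and 13.5% rose. Their median log2 fold changes were -0.20, -0.13 and -0.33. In M0, DGAT1i raised 2 brakes, 4 components and 4 targets and lowered 2, 2 and 3, where 24.4% of all genes were called. In M0 these counts ranged over the alternatives from 1 to 2, 2 to 5 and 2 to 4 higher and from 1 to 4, 1 to 4 and 2 to 4 lower. The medians there were -0.02, 0.03 and -0.17, the last over the 17 targets with more than 3 reads in a group.

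Among the brakes, the A20-binding protein Tnip1 followed a course like that of Tnfaip3 in stimulated cells. It had 39.3 ± 3.09 CPM in M0, 228 ± 19.3 in IFNγ + LPS, 41.01 ± 0.881 in M0 + DGAT1i and 157 ± 5.53 in IFNγ + LPS + DGAT1i (SD, n = 3), with a log2 fold change of -0.54 by DGAT1i in IFNγ + LPS (adjusted p = 2.29e-10 by edgeR) and of 0.06 in M0 (adjusted p = 0.623). Its relative Tnip3 fell by 0.52 on the log2 scale in each state. Zc3h12a, the RNase regnase-1, fell by 0.36 and Irak3, an inhibitory kinase homologue, by 0.28 in IFNγ + LPS. The latter was lost with DESeq2 (adjusted p = 0.0876), without IFNγ + LPS replicate 1 (0.111) and without IFNγ + LPS + DGAT1i replicate 3 (0.0536). Of the remaining nuclear IκB proteins, Bcl3, which binds p50 and p52 homodimers, had 6.44 CPM in M0, 69.0 in IFNγ + LPS and 59.2 in IFNγ + LPS + DGAT1i, and its log2 fold change by DGAT1i was -0.22 (SE 0.09, adjusted p = 0.0568 by edgeR). Nfkbid fell by 0.58 with DGAT1i in IFNγ + LPS (adjusted p = 9.45e-06 by edgeR) and by 0.35 in M0 (adjusted p = 0.00490), the latter lost without M0 + DGAT1i replicate 2 (-0.26, adjusted p = 0.0811). Rnf11, which works with A20, rose in each state, by 0.28 in IFNγ + LPS and 0.32 in M0.

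Of the 3 genes of the IKK complex, 1 changed with DGAT1i in IFNγ + LPS. Ikbkg, its regulatory subunit NEMO, rose with DGAT1i in each state, from 83.1 ± 5.97 to 120.2 ± 1.61 CPM in M0 and from 148 ± 7.43 to 210.5 ± 4.72 CPM in IFNγ + LPS (SD, n = 3). Its log2 fold changes were 0.53 and 0.51. The kinase subunits had log2 fold changes with DGAT1i in IFNγ + LPS of -0.07 for Chuk (adjusted p = 0.516 by edgeR) and -0.09 for Ikbkb (adjusted p = 0.355). In M0 they were 0.25 for Chuk and 0.21 for Ikbkb, past the threshold but lost with DESeq2 (adjusted p = 0.0766 and 0.0731) and with library size only (0.0504 and 0.0690). They were lost too without 1 library: Chuk without M0 replicate 1 (0.0561) or 3 (0.0878) or M0 + DGAT1i replicate 2 (0.0630), and Ikbkb without M0 replicate 2 (0.0893) or M0 + DGAT1i replicate 3 (0.0581). Further upstream, the adaptor Myd88 had 53.0 ± 4.64 CPM in M0 and 157 ± 2.33 in IFNγ + LPS, and fell by 0.57 on the log2 scale with DGAT1i in IFNγ + LPS (adjusted p = 2.66e-10 by edgeR). Traf1, which rose from 4.10 ± 0.948 to 292 ± 3.40 CPM on stimulation, fell by 0.51 with DGAT1i (adjusted p = 2.57e-10 by edgeR). Birc3, a ubiquitin ligase that binds TRAF proteins, had 23.2 ± 1.26 CPM in M0 and 225 ± 12.4 in IFNγ + LPS (SD, n = 3). Its log2 fold change with DGAT1i was -0.17 (adjusted p = 0.0228 by edgeR), a call lost with DESeq2 (0.0696), with only the 6 libraries compared (0.0587), without IFNγ + LPS replicate 1 (0.124) or 2 (0.0555) and without IFNγ + LPS + DGAT1i replicate 3 (0.145). Traf2 fell by 0.37, while the kinase Irak1 rose by 0.26 in IFNγ + LPS, a call lost without IFNγ + LPS replicate 3 (adjusted p = 0.0644) or IFNγ + LPS + DGAT1i replicate 2 (0.0601). With DGAT1i in M0 these genes were called too. Over the 19 alternatives the log2 fold change there was 0.29 to 0.38 for Irak1, always called. For Traf2 it was -0.38 to -0.22, and the call was lost in 8 of them.

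**Figure D5:**
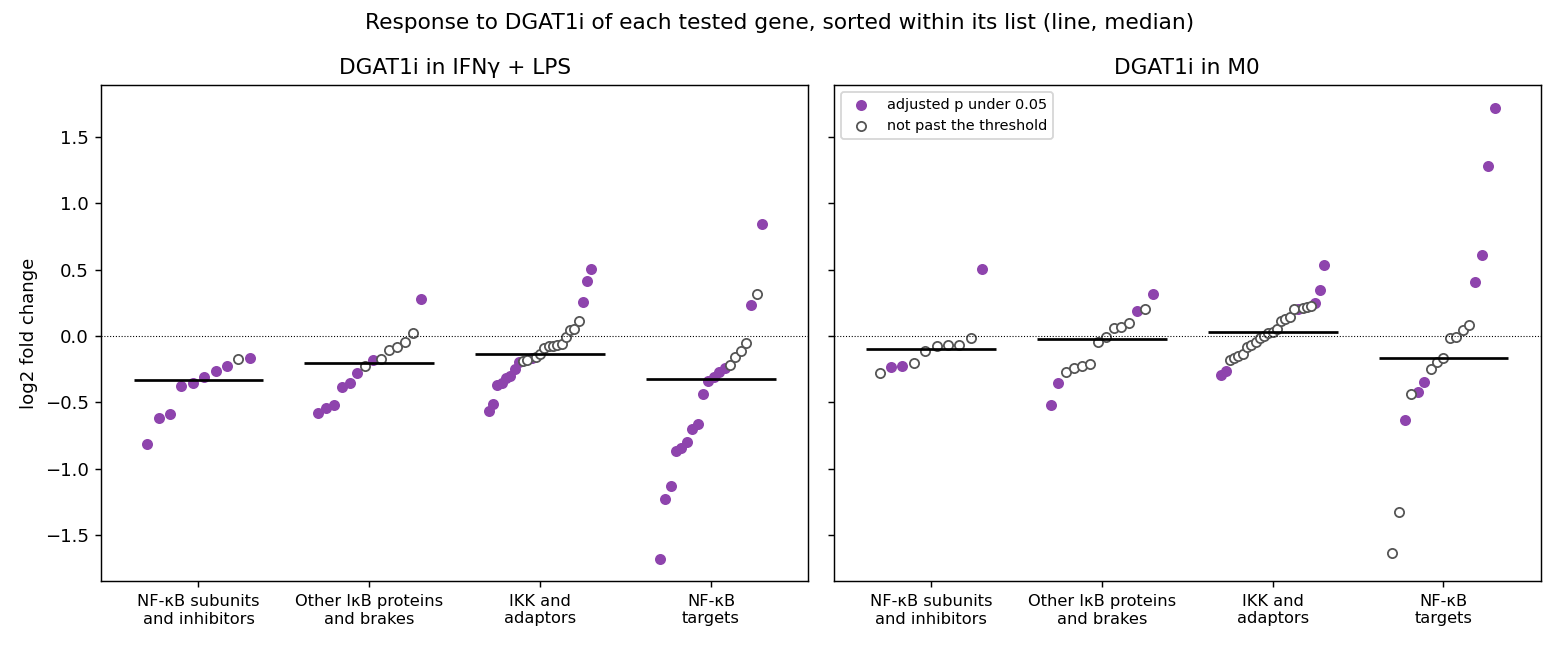
Log2 fold change by DGAT1i of each tested gene, sorted within its list, in IFNγ + LPS (left) and in M0 (right), with filled points for an adjusted p under 0.05 and a line at each median. Genes with 3 reads or fewer in each group compared are left out. In IFNγ + LPS the medians of the 10 members and of the targets are each -0.33, and in M0 they are -0.10 and -0.17.

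Among the targets, the cytokine genes Il1b and Il6 and the adhesion gene Vcam1 fell most with DGAT1i in IFNγ + LPS. Il1b had 77.4 ± 10.9 CPM without and 23.9 ± 5.45 CPM with DGAT1i (log2 fold change -1.68, adjusted p = 3.15e-12 by edgeR). Vcam1 had 44.8 ± 4.27 and 19.0 ± 2.82 CPM (log2 fold change -1.23, adjusted p = 3.33e-06 by edgeR). Il6 had 14.95 ± 1.10 and 6.77 ± 1.63 CPM (log2 fold change -1.13, adjusted p = 1.05e-05 by edgeR), with 0 reads in M0, so that its rise on stimulation was at least 108-fold over a floor of 3 reads in the group. Their estimates lay below that of Nfkbiz, the member that fell most, a comparison that was not tested. Nos2, the inducible nitric oxide synthase, had 0 reads in M0 and 4785 ± 326 CPM in IFNγ + LPS, and rose by 0.23 with DGAT1i (adjusted p = 0.000713 by edgeR). Ptgs2, which encodes cyclooxygenase-2, fell by 0.66 (adjusted p = 4.34e-13 by edgeR). Il12b had 83.9 ± 17.1 and 103 ± 22.9 CPM (log2 fold change 0.31, adjusted p = 0.419 by edgeR). The targets thus did not move as a block under DGAT1i.

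For each member the gene with the most similar course over the 12 libraries is given as a description, among the 10162 genes that averaged 2 or more in log2 CPM. The measure was Pearson's r of log2 CPM, and since the libraries fall into 4 treatment groups, high values are common. Lcp2 was nearest to Nfkb1 (0.993) and also to Nfkbiz (0.986). Irf7 was nearest to Nfkbie (0.999), Fcgr4 to Nfkbib (0.998), H2-Q4 to Relb (0.997), Tor1aip1 to Rela (0.997), Nfe2l1 to Tnfaip3 (0.999), and Synj1 to Rel at the lowest value (0.971). Mllt6 was nearest to Nfkb2 and Acsl1 to Nfkbia.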

How the data were processed

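RNA was sequenced from 12 libraries in 4 groups. The authors deposited raw read counts per gene, not normalized, on GRCm38 per the processing notes. An aligner, a counting tool or an annotation release was not given in the sources used here. Library kits differ between labels and methods, so that the counting strand is unknown. Of 47937 identifiers, 47224 matched GENCODE release M21 without their version, which gave symbols, positions and exon lengths. The tests used edgeR 4.0.16 under R 4.3.3: filterByExpr kept 11760 genes, libraries were scaled by TMM, and glmQLFit (robust) was fitted to all 12 libraries with 1 mean per group. Genes with a Benjamini-Hochberg adjusted p under 0.05 were called. The common biological coefficient of variation was 0.0507, and replicates differed by more than sampling noise (chi-square per gene 1.98 to 4.26). On simulated counts with 200 changed genes, edgeR found 66% of 1.5-fold and 88% of 2-fold changes for DGAT1i in IFNγ + LPS, with 6 false calls, against 11 to 13 in the other 3 comparisons simulated. In the data 3508 genes were called for DGAT1i in IFNγ + LPS, so that these figures need not carry over. The simulation did not test the scaling under so wide a change. Alternatives were RLE scaling, library size only, no filter, a mean of at least 1 CPM, DESeq2 1.42.0, only the 6 libraries compared, a replicate block, and leaving out each library.

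The 10 members were named in full, with their positions on GRCm38: Nfkb1 (ENSMUSG00000028163.17, chr3:135584655-135691547), Nfkb2 (ENSMUSG00000025225.14, chr19:46304320-46312385), Rel (ENSMUSG00000020275.9, chr11:23736847-23770970), Rela (ENSMUSG00000024927.7, chr19:5637483-5648130), Relb (ENSMUSG00000002983.17, chr7:19606217-19629438), Nfkbia (ENSMUSG00000021025.7, chr12:55489410-55492647), Nfkbib (ENSMUSG00000030595.15, chr7:28758251-28767512), Nfkbie (ENSMUSG00000023947.7, chr17:45555703-45563169), Nfkbiz (ENSMUSG00000035356.16, chr16:55811375-55838899) and Tnfaip3 (ENSMUSG00000019850.11, chr10:19000910-19015657). From each pathway list, up to 3 called genes with the largest change per contrast were named, plus Bcl3, Nfkbid and the IKK genes. Members, lists and rules were chosen with earlier results of these data known. A further promoter motif that was searched is not reported here.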

Additional observations from a re-analysis of the deposited data

Results flagged for a closer look

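The response to DGAT1i differed between IFNγ + LPS and M0 macrophages, by edgeR's test of that difference, for 5 of the 10 NF-κB genes, where 18.5% of all genes tested passed. In the pathway lists it differed for 5 of 14 brakes, 7 of 25 IKK components and adaptors, and 8 of the 17 targets with more than 3 reads in an unstimulated group. The pathway genes given here were named because they passed in a contrast, this one included, so that their number is no result. All values are log2 fold changes in IFNγ + LPS minus those in M0. Among the members they were -0.86 for Tnfaip3, -0.61 for Nfkbiz, -0.38 for Nfkb1, -0.36 for Nfkb2 and -0.29 for Nfkbia. Of these, Tnfaip3 is the gene with called changes of opposite sign.

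Among the brakes, the difference was -0.60 for Tnip1 (adjusted p = 7.74e-06 by edgeR), -0.48 for Irak3 and -0.46 for Zc3h12a. Among the adaptors and kinases it was -0.46 for Birc2, -0.40 for Sharpin, -0.37 for Irak4, -0.32 for Chuk, -0.30 for Ikbkb and -0.30 for Myd88. With DESeq2, 0 of the 25 IKK components and adaptors were called (8 at an unadjusted p under 0.05), against 7 with edgeR, and 3 of the 14 brakes, against 5, with Irak3 (adjusted p = 0.0860) and Zc3h12a (0.0601) lost. With library size only, the call was lost for Irak4 (adjusted p = 0.0667), Chuk (0.0660), Ikbkb (0.0538) and Myd88 (0.0667). Without 1 library, Zc3h12a lost its call (M0 + DGAT1i replicate 3, -0.39). So did Irak3 (M0 replicate 1 or 2, IFNγ + LPS replicate 1, M0 + DGAT1i replicate 2, -0.43 to -0.42) and Myd88 (M0 replicate 1, M0 + DGAT1i replicate 2, IFNγ + LPS + DGAT1i replicate 1, -0.28 to -0.24). Chuk lost it (M0 replicate 1 or 3, replicate 2 of each other group, -0.30 to -0.27), as did Ikbkb (M0 or IFNγ + LPS replicate 2, IFNγ + LPS + DGAT1i replicate 1, -0.27 to -0.26) and Irak4 (M0 replicate 3, IFNγ + LPS replicate 2, M0 + DGAT1i replicate 1 or 3, IFNγ + LPS + DGAT1i replicate 2, -0.37 to -0.34). Among the targets it was -2.08 for Cxcl2, -1.97 for Ccl5, -1.31 for Vcam1 and 0.58 for Ccl2, which among these 18 genes had the only higher response in IFNγ + LPS. Cxcl2 rose with DGAT1i in M0, from 1.24 ± 0.443 to 3.08 ± 0.383 CPM (SD, n = 3), and had 6.50 ± 0.611 CPM without and 3.74 ± 1.06 CPM with DGAT1i in IFNγ + LPS. Ccl5 rests on 5 reads in M0 and 18 in M0 + DGAT1i, and its call was lost without M0 replicate 3 (-1.73, adjusted p = 0.0614 by edgeR) or M0 + DGAT1i replicate 1 (-1.86, 0.0515). Ccl2 had 49.3 ± 7.05 CPM in M0 and 31.8 ± 0.628 CPM in M0 + DGAT1i, with 648 ± 27.1 and 625 ± 80.7 CPM in the stimulated groups.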

How the results depend on the processing

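The counts of called members and of called genes stayed within 1.5 times their value under each of the 7 other settings (6 for the difference, which needs all groups) and with each of the 12 libraries left out: 10 of 10 members after IFNγ + LPS, 7 to 9 with DGAT1i in IFNγ + LPS (7 with DESeq2), 2 to 4 with DGAT1i in M0, 9 to 10 for IFNγ + LPS under DGAT1i and 4 to 5 for the difference between the DGAT1i responses. The lost calls of the members are given beside each gene. The correlation of deviations was -0.0217 to 0.0687 over 18 same-numbered pairs of libraries (median 0.0115). It was -0.058 to 0.038 over 36 pairs with different numbers (median -0.0045). Whether replicate numbers pair the libraries is not settled by these values. With the replicate block 10, 9, 3, 10 and 5 members were called, among 8635, 3568, 2959, 8310 and 2268 genes.

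Values that changed sign were small and not called in the members. With 1 library left out, they ranged from -0.14 to 0.029 for Rel, -0.064 to 0.018 for Nfkbia and -0.19 to 0.020 for Nfkbib with DGAT1i in M0, and, for the difference, from -0.28 to 0.012 for Rel, -0.14 to 0.12 for Relb and -0.14 to 0.0011 for Nfkbie. The difference was -0.023 for Relb with no filter and 0.0017 for Nfkbie with library size only. Alternatives for pathway genes were added after the data were seen. With library size only, Irak4 (-0.26) and Rnf11 (-0.11) changed sign after IFNγ + LPS, and Chuk (-0.12), Nfkbid (-0.15) and Rnf11 (-0.11) under DGAT1i. The Irak4 value was itself called (adjusted p = 0.00628 by edgeR), so that its call went from higher to lower. The others were not called (adjusted p = 0.160 for Rnf11 after IFNγ + LPS, and 0.123, 0.212 and 0.177 under DGAT1i). The cause was not tested. At this depth Relb, Nfkbib, Nfkbie, Nfkbiz and Rel, the members with the fewest reads in M0, had the widest intervals with DGAT1i in M0.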
